A study of Mus musculus with 24 samples.

Results

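The genes described here are the nuclear subunits of complexes III, IV and V of mitochondrial oxidative phosphorylation in mouse skeletal muscle. They were all protein-coding genes whose symbol starts with Uqcr (complex III), with Cox4 to Cox8 (complex IV) or with Atp5 (complex V). Of 25369 genes listed per library, 46 met this rule, 8 in complex III, 19 in complex IV and 19 in complex V. The rule reads symbols and gene class, not values. Reads were counted in left quadriceps muscle of mice aged 25 weeks, in 24 libraries. The mice carried the Lama2-CMD mutation (CMD), a model of a congenital muscular dystrophy in which laminin around the muscle fibres is deficient, or were healthy wild type (WT). They had 4 genetic backgrounds: B6 (C57BL/6J), 67 (CMD-67 in the sample labels and BXD-67 in the study design), 87 (CMD-87 and BXD-87) and D2 (DBA/2J). BXD lines descend from crosses of B6 with D2 and are inbred. Each background had 3 CMD and 3 WT libraries, which makes 8 groups. The labels give neither the Lama2 allele nor how the mice of a group are related, so the tests measure the spread between these samples. The question was whether the disease changed these subunits, and whether that change depended on the background.

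Complex III passes electrons from ubiquinol to cytochrome c, and complex IV passes them on to oxygen. Both pump protons across the inner mitochondrial membrane, and complex V, the ATP synthase, uses the returning protons to make ATP. Mitochondrial DNA encodes cytochrome b of complex III and a few core subunits each of complexes IV and V, and the nuclear genome encodes the rest. Several complex IV subunits exist as pairs of isoforms, one enriched in heart and skeletal muscle and one found in most tissues, called the liver type. Muscle fibres differ in mitochondrial content, with more in slow and fast oxidative fibres than in fast glycolytic ones, and much of the mouse quadriceps is fast glycolytic. Nuclear respiratory factor 1 (NRF1), GABP, the estrogen-related receptors and the coactivators Ppargc1a and Ppargc1b are known regulators of these genes.

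Promoter windows in RefSeq's annotation of GRCm38.p6 were matched for 33 of the 46 genes, with 36 windows of 250 bases before and 50 bases after a start. Both strands were searched. The NRF1 consensus site was in 9 of the 36 windows (25%), against 1512 of all 32851 windows (4.6%). The core of the GABP-type ETS site, CCGGAAG, was in 10 (27.8%, against 8.86% of all), the estrogen-related receptor half-site AAGGTCA in 5 (13.9%, against 4.72%) and the YY1 site AAGATGGC in 3 (8.33%, against 2.75%). These matches are letters in a window and say nothing of binding in these muscles. The promoters below are shown because their genes cover the patterns that follow. The files were mapped to GRCm39, so the coordinates belong to the RefSeq build alone. Each line gives the 250 bases before the start, 5′ to 3′ on the strand of the gene, with matched sites in capitals.
Atp5mc3, chr2:73911327-73911576, minus strand: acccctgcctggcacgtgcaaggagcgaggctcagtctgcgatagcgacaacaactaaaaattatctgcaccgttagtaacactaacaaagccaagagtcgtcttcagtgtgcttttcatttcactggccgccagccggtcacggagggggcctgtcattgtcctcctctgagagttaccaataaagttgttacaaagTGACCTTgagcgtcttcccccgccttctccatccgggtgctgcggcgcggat
Atp5me, chr5:108434400-108434649, minus strand: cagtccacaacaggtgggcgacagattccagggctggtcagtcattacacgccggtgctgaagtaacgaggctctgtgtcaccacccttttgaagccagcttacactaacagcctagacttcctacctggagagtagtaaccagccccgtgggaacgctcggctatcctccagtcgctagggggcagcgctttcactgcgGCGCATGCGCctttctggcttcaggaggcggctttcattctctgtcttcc
Cox6a1, chr5:115348959-115349208, minus strand: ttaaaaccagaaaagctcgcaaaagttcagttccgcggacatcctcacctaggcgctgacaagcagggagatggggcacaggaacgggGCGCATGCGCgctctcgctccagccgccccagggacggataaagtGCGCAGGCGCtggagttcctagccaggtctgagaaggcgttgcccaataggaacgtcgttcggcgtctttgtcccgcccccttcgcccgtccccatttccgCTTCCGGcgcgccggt
Cox8b, chr7:140900447-140900696, minus strand: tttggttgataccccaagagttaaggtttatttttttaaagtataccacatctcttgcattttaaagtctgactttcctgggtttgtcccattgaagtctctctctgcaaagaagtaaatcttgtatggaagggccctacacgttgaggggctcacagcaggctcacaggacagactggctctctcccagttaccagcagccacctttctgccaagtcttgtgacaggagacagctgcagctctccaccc
Atp5mc3, a c-ring gene that was higher in CMD muscle of B6 and 87 and lower in that of D2, has an estrogen-related receptor half-site on the opposite strand 52 bases before the start. Atp5me, a membrane subunit gene that was higher in B6 and 87, has an NRF1 site 50 bases before it. In the full windows, with the 50 bases after the start, Atp5mc3 also has an NRF1 site. The full Atp5me window also has an estrogen-related receptor half-site and an ETS site. Cox6a1, a liver-type isoform gene that was called in no strain, has NRF1 sites at 162 and 117 bases and an ETS site on the opposite strand at 16 bases. Cox8b, a muscle isoform gene called in D2 alone, has none of the 4 motifs in these bases.

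Libraries held 32292613 to 51715975 total exon reads, and they carry the numbers of the labels: CMD has 4 to 6 in B6, 10 to 12 in 67, 16 to 18 in 87 and 22 to 24 in D2, and WT has 1 to 3, 7 to 9, 13 to 15 and 19 to 21 in the same order of strains. Reads of 4 Y-linked genes matched the sex label in 20 libraries and went against it in 4 D2 libraries. In D2 CMD, libraries 22 and 24 had 4927 and 4858 such reads under a female label, and in D2 WT, libraries 19 and 21 had 1 and 0 under a male label. By these reads D2 CMD library 23 was the only female of its group and all D2 WT libraries were female. Sex thus largely went with genotype in D2, and their effects there can hardly be told apart. In 67, WT library 7 was the only male. The males of B6 were WT library 1 and CMD libraries 4 and 6, and those of 87 were WT library 13 and CMD libraries 17 and 18. Because of the mismatch with the labels, no sex term was used in the main model. Because a mismatch of this kind could also stem from exchanged libraries, the D2 genotype labels were checked with genes chosen in the other strains. Over the 401 genes outside the set that were called higher in CMD in each of B6, 67 and 87, the median log2 level relative to the WT libraries of those strains was 0.81, 1.28 and 1.25 in D2 CMD libraries 22, 23 and 24, against 0.37, 0.26 and 0.39 in D2 WT libraries 19, 20 and 21. Over the 485 genes called lower there it was -0.51, -0.87 and -0.70 in D2 CMD, against -0.21, -0.02 and -0.26 in D2 WT. Each D2 library thus stood with its labelled genotype by these genes, and the origin of the sex mismatch was not tested. Lama2 was lower in CMD in B6 (16.04 to 23.9 CPM in CMD, 36.5 to 50.3 CPM in WT) and in 87 (12.9 to 19.5 CPM in CMD, 27.4 to 35.8 CPM in WT). In 67 it was 19.996 to 33.8 CPM in CMD and 24.3 to 28.4 CPM in WT, and in D2 23.3 to 29.0 CPM in CMD and 23.8 to 42.5 CPM in WT, so its level did not separate the groups there and is no check of the labels. CPM are read counts scaled to a common library size with TMM factors.

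Of the 46 genes, 44 had enough reads to be tested. The other 2 are testis isoforms of complex IV subunits, Cox7b2 with 2 reads in all libraries together and Cox8c with 0. Levels between genes were compared in TPM, which the authors scaled by transcript length. Atp5f1b, the catalytic beta subunit of complex V, had the highest level, with group means of 1887 to 3158 TPM. Cox6a2, the muscle isoform of complex IV subunit 6a, followed with 1551 to 2295 TPM. Its liver-type partner Cox6a1 had group means of 41.7 to 192 TPM. At the low end stood the lung-type isoform Cox4i2, with 2.01 to 4.04 TPM, and the testis isoform Cox6b2, with 0.211 to 1.12 TPM. Of the tested members, 5 shared more of their reads with other places than the rest, and their values are less certain. Uniquely mapped reads made up 0.32% for Atp5po_1 and 85.7% for Atp5po_2, which are 2 loci with the symbol Atp5po. They made up 49.6% for Cox5b-ps, 72.2% for Cox5b and 93.9% for Uqcrc2.

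CMD muscle had higher levels of most of these genes in B6 and 87, of few that passed the test in 67, and lower levels in D2. In B6, 34 of 44 members were called higher in CMD (adjusted p under 0.05 in edgeR's quasi-likelihood test, Benjamini-Hochberg over all genes) and 0 lower. Of all 14789 genes tested, 8.07% were called higher in B6, 10.4% lower and 18.4% in either direction. In 87, 37 of 44 were called higher and 0 lower, against 11.5% of all genes called higher and 9.38% lower. In 67, 7 of 44 were called higher and 0 lower, against 11.4% of all genes called higher and 10.3% lower, so that this share (15.9%) stands near the background. In D2, 23 were called lower and 1 higher, against 9.03% of all genes called lower, 11.2% higher and 20.2% in either direction. The median log2 fold change over the 44 members was 0.69 in B6, 0.34 in 67, 0.84 in 87 and -0.50 in D2, where the median over all genes was 0.01, 0.00, 0.01 and 0.03. In B6 43 members had a change above 0, in 67 42, in 87 43 and in D2 4. Of all genes, 50.9%, 50.38%, 50.73% and 52.05% did so in B6, 67, 87 and D2.

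**Figure D1:**
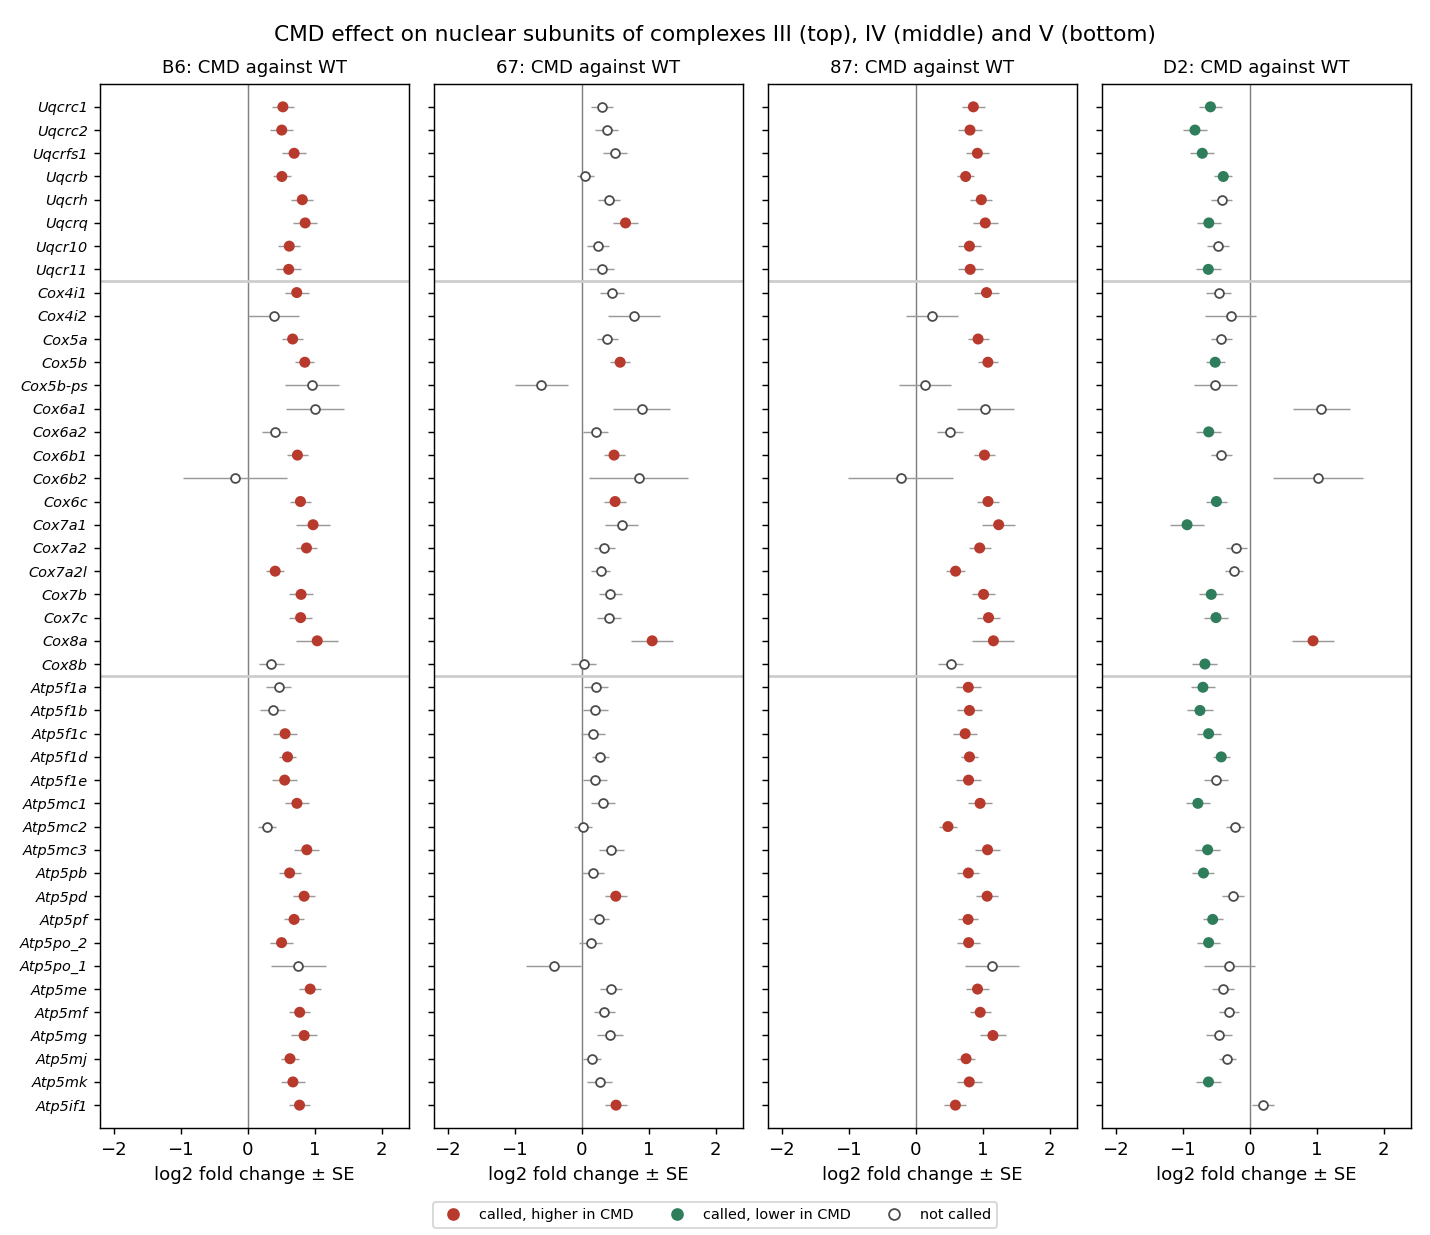
Log2 fold change of CMD against WT (x axis) with its standard error for each of the 44 tested subunits (rows, complex III at the top, IV in the middle, V at the bottom) in B6, 67, 87 and D2. Filled points passed an adjusted p of 0.05, red where higher in CMD and green where lower. In B6 and 87 the filled points lie right of 0, in 67 7 of them do, and in D2 23 lie left of 0 and Cox8a lies right of it.

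The libraries themselves showed the same order. Summed over all 46 genes, B6 CMD libraries held 17816, 18683 and 19218 CPM, against 10917, 12116 and 14005 CPM in B6 WT. In 67 the sums were 15224, 16813 and 16209 CPM in CMD, against 11600, 14922 and 12820 CPM in WT. Both pairs were separate, with the narrower gap in 67. In 87 they were 22710, 20365 and 20311 CPM in CMD, against 10141, 12862 and 12067 CPM in WT. In D2 they were 14109, 9766 and 9075 CPM in CMD, against 15011, 15613 and 18993 CPM in WT. The 87 CMD libraries held the highest sums of all, and D2 CMD library 22 lay just below the lowest D2 WT library while libraries 23 and 24 lay far below it. For single genes, all 3 CMD libraries lay above all 3 WT libraries for 41 of 44 members in B6, where 19.7% of all genes did so. They did so for 24 members in 67 (22.2% of all genes) and for 38 in 87 (15.5% of all genes). In D2 all 3 CMD libraries lay below all 3 WT libraries for 21 members, where 21.5% of all genes did so, and above them for 0. In bulk muscle, fewer cells or fibres of a type and less RNA of a gene per cell cannot be told apart.

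**Figure D2:**
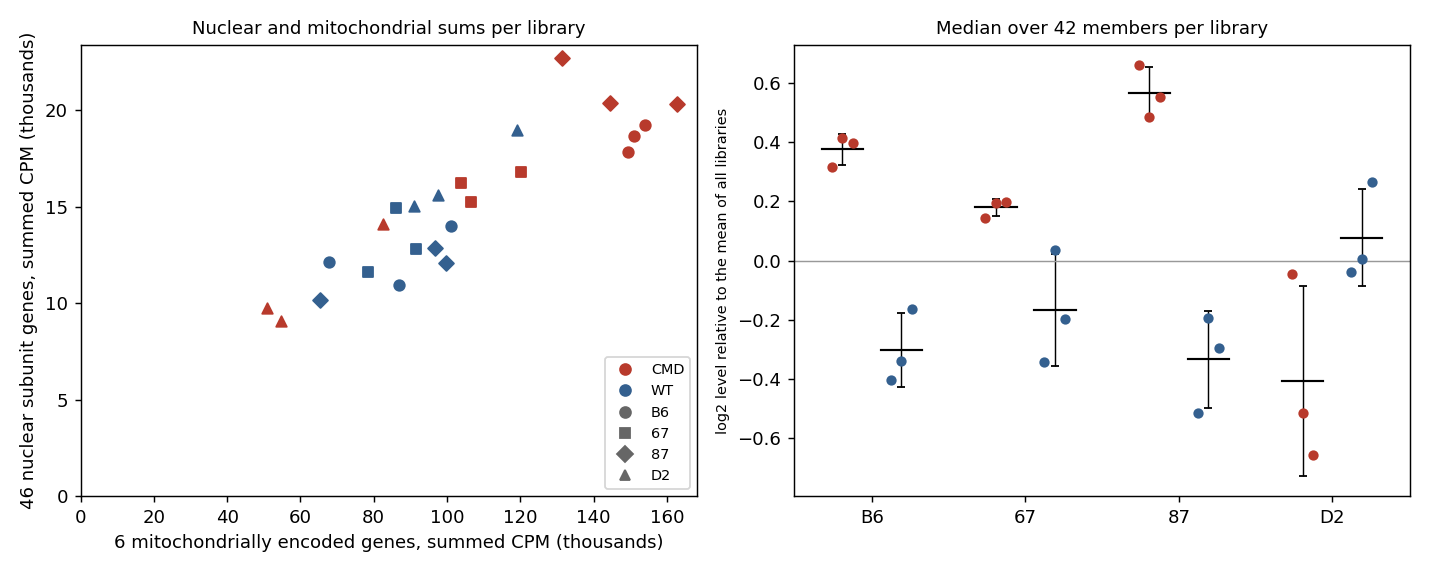
Left, summed CPM of the 46 nuclear genes (y axis, in units of 1000 CPM) against that of the 6 mitochondrially encoded subunits of the same complexes (x axis, in units of 1000 CPM) in each library, with colour for genotype and shape for strain. Right, the median over 42 members of the log2 level relative to the mean of all libraries, with the group mean (line) and SD (bar); the 3 87 CMD libraries are highest, at 0.48 to 0.66, and D2 CMD libraries 23 and 24 lowest, at -0.51 and -0.66.

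The counts in 67 and D2 moved with single libraries. The count of D2 members called was 7 without library 24, 8 without library 21, 10 without library 23 and 34 without library 22, against 24 with all libraries. It was 9, all lower, when sex taken from Y-linked reads was a term of the model. Without the TMM factors, on library totals alone, 7 D2 members were called lower and 2 higher. That scaling moved the median log2 fold change of all genes to 0.30 in D2 and 0.26 in 67, with the median of the members at -0.24 in D2 and 0.59 in 67. The count in 67 then came to 33, all higher, with 23.2% of all genes called in either direction under that scaling. With TMM it was 0 without library 7, 2 without library 9, 11 or 12 and 3 without library 10, against 7 with all libraries. Library 7 was the only male of 67 by Y-linked reads. The B6 count was 19 without library 2, and the 87 count ran from 35 to 41 when any one 87 library was left out. The share of all genes called can also move when a library is left out, and it is not given beside these counts.

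The subunits of complex III made up the most uniform group, and all 8 were called higher in CMD in B6 and in 87. In 67 1 of 8 was called, and in D2 6 of 8 were called lower. Uqcrfs1 (ENSMUSG00000038462) encodes the Rieske iron-sulfur protein, the subunit that hands electrons towards cytochrome c. It had 425, 443 and 470.0 CPM in B6 CMD muscle, against 231, 266 and 332 CPM in B6 WT muscle. In 67 it had 389, 457 and 376 CPM in CMD, against 242, 329 and 296 CPM in WT. In 87 the values were 578, 538 and 539 CPM in CMD, against 244, 318 and 313 CPM in WT. All CMD libraries of these 3 strains lay above their WT libraries. In D2 the values were 357, 237 and 241 CPM in CMD, against 394, 436 and 535 CPM in WT, with every CMD library below every WT library. The log2 fold changes were 0.69 ± 0.18 in B6 (SE, edgeR adjusted p = 0.0122), 0.50 ± 0.18 in 67 (0.0502), 0.92 ± 0.18 in 87 (0.00155) and -0.71 ± 0.18 in D2 (0.00957). The B6 call was lost without library 2. Fits of one strain alone lost the 87 and D2 calls (edgeR adjusted p = 0.0515 and 0.0632).

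The core proteins Uqcrc1 and Uqcrc2 form the large matrix part of complex III. Uqcrc2 (ENSMUSG00000030884) had 360.2, 264 and 223 CPM in D2 CMD, against 452, 455 and 586 CPM in D2 WT. This was the lowest adjusted p among the members called lower in D2 (log2 fold change -0.82 ± 0.17, edgeR adjusted p = 0.00367). In 87 it had 564, 534 and 486 CPM in CMD, against 261, 323 and 319.7 CPM in WT (0.81 ± 0.17, edgeR adjusted p = 0.00311). In B6 it had 418, 445 and 501 CPM in CMD, against 268, 292 and 400.4 CPM in WT, and its change of 0.51 ± 0.17 was close to the threshold (edgeR adjusted p = 0.0467). The B6 call was lost without each of libraries 1, 2, 4, 5 and 6. Uqcrc1 (ENSMUSG00000025651) had log2 fold changes of 0.52 ± 0.17 in B6, 0.86 ± 0.17 in 87 and -0.59 ± 0.17 in D2 (edgeR adjusted p = 0.0376, 0.00184 and 0.0209). Its B6 call was lost without library 1, 2, 4, 5 or 6 and its D2 call without library 21, 23 or 24. On library totals and in a fit of the D2 libraries alone the D2 call was lost too (edgeR adjusted p = 0.096 and 0.112). In 67 neither core protein gene was called, with 0.30 for Uqcrc1 and 0.38 for Uqcrc2.

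The small subunits of complex III moved likewise. Uqcrq, a small subunit near the ubiquinone-binding site, was the complex III gene called in 67, with 252, 225 and 248 CPM in CMD, against 125, 178 and 157 CPM in WT (log2 fold change 0.65 ± 0.18, edgeR adjusted p = 0.0163). Its changes were 0.86 in B6, 1.04 in 87 and -0.61 in D2, all called. Uqcrb, Uqcrh, Uqcr10 and Uqcr11 were called higher in B6 (0.51 to 0.81) and in 87 (0.74 to 0.98). In D2 Uqcrb (-0.39) and Uqcr11 (-0.62) were called lower, and Uqcrh (-0.42, edgeR adjusted p = 0.0722) and Uqcr10 (-0.47, adjusted p = 0.0502) were not called. Cyc1, the cytochrome c1 gene of complex III whose symbol falls outside the rule, had log2 fold changes of 0.67, 0.47, 0.89 and -0.55 in B6, 67, 87 and D2 (edgeR adjusted p = 0.0151, 0.0673, 0.00202 and 0.0357).

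In complex IV, 11 of 17 tested genes were called higher in B6, 4 in 67 and 11 in 87, with 0 lower. In D2 7 were called lower and 1 higher. Cox5b (ENSMUSG00000061518), a zinc-binding subunit on the matrix side, had the lowest adjusted p of the members in B6, 67 and 87. It had 402, 419 and 419.6 CPM in B6 CMD, against 213, 225 and 249.7 CPM in B6 WT. In 67 it had 353, 371 and 359 CPM in CMD, against 200.3, 288 and 240.1 CPM in WT. The 87 libraries had 475, 418 and 481 CPM in CMD, against 191, 234 and 225 CPM in WT. The groups of each of these strains did not overlap, and the CMD libraries of B6 and 67 were close to each other. In D2 the direction was the opposite, with 239.6, 203 and 176 CPM in CMD, against 275, 264 and 345 CPM in WT. The log2 fold changes were 0.85 ± 0.14, 0.57 ± 0.14, 1.08 ± 0.15 and -0.52 ± 0.14 in B6, 67, 87 and D2 (SE, edgeR adjusted p = 0.00114, 0.00871, 0.000118 and 0.0173). The 67 call was lost without library 7, and the D2 call without library 21 or 24. With sex from Y-linked reads as a term the D2 call was lost as well (edgeR adjusted p = 0.0608). It was also lost on library totals and in a fit of the D2 libraries alone (edgeR adjusted p = 0.195 and 0.0874).

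Cox6c (ENSMUSG00000014313), a small membrane subunit, followed Cox5b. It had 399, 420.5 and 409 CPM in B6 CMD, against 216, 229.5 and 267 CPM in B6 WT, and 524, 435 and 477 CPM in 87 CMD, against 198, 255 and 226 CPM in 87 WT. In D2 it had 275, 203 and 172 CPM in CMD, against 274, 277 and 366 CPM in WT, so that library 22 lay within the WT range. Its log2 fold changes were 0.79, 0.50, 1.08 and -0.50 in B6, 67, 87 and D2 (edgeR adjusted p = 0.00369, 0.0334, 0.000309 and 0.0357). The 67 call was lost without library 7, 9, 10, 11 or 12, and the D2 call without library 21, 23 or 24. With sex from Y-linked reads as a term the D2 call of Cox6c was lost (edgeR adjusted p = 0.117). It was also lost on library totals and in a fit of the D2 libraries alone (edgeR adjusted p = 0.234 and 0.145). Cox5a, Cox6b1, Cox7b and Cox7c, further subunits of the holoenzyme, were called higher in B6 (0.67 to 0.80) and in 87 (0.93 to 1.09). Cox7b (-0.57) and Cox7c (-0.50) were called lower in D2, and Cox5a (-0.42) and Cox6b1 (-0.43) were not. Ndufa4, a subunit now assigned to complex IV that the symbol rule leaves out, had 0.65, 0.19, 0.80 and -0.50, called in B6, 87 and D2. Cox7a2l encodes a factor that joins complexes III and IV into a supercomplex, and C57BL/6 mice are known to carry a shortened form of it. It was higher in CMD by 0.41 in B6 and 0.59 in 87 (edgeR adjusted p = 0.043 and 0.00496), and was at 0.28 in 67 and -0.24 in D2, not called. Its WT level was 102, 112 and 112 CPM in D2 and 106, 95.7 and 110.0 CPM in B6.

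The isoform pairs of complex IV did not move alike. The muscle isoforms Cox6a2 and Cox8b were called in D2 alone, where they were lower, while the liver-type isoforms Cox6a1 and Cox8a had changes of 0.90 to 1.16 in all 4 strains. Cox8a (ENSMUSG00000035885) was the only member called higher in all 4 strains. It had 31.4, 40.1 and 38.6 CPM in B6 CMD, against 20.3, 14.4 and 18.96 CPM in B6 WT. In 67 it had 31.0, 34.1 and 35.5 CPM in CMD, against 16.5, 16.9 and 15.1 CPM in WT. The 87 libraries had 52.9, 27.6 and 52.9 CPM in CMD, against 28.2, 16.9 and 14.7 CPM in WT. In D2 it had 55.2, 67.5 and 26.1 CPM in CMD, against 34.9, 17.96 and 24.3 CPM in WT. The groups were separate in B6 and 67 and overlapped in 87 and D2. The log2 fold changes were 1.04, 1.05, 1.16 and 0.95 in B6, 67, 87 and D2, each ± 0.31 (SE, edgeR adjusted p = 0.0278, 0.0226, 0.0134 and 0.0385). Each of these calls was lost when single libraries were left out, in B6 library 2, 3, 5 or 6, in 67 library 7, 8, 9, 11 or 12, in 87 library 14, 15 or 16, and in D2 library 20, 21, 22 or 23. With sex from Y-linked reads as a term the D2 call of Cox8a was lost (edgeR adjusted p = 0.0547). Fits of one strain alone lost the 87 and D2 calls (edgeR adjusted p = 0.116 and 0.11). Cox6a1 (ENSMUSG00000041697) had 50.2, 64.2 and 13.9 CPM in D2 CMD, against 34.5, 12.8 and 13.8 CPM in D2 WT. Its log2 fold changes ran from 0.90 in 67 to 1.07 in D2, and it was called in no strain (edgeR adjusted p = 0.0793 to 0.141).

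In D2 and 87 WT the libraries highest in these liver-type isoforms were also the highest in fat cell transcripts. The sum of 4 adipocyte marker genes was 592, 666 and 16.9 CPM in D2 CMD libraries 22, 23 and 24, against 201, 27.6 and 15.5 CPM in D2 WT libraries 19, 20 and 21. The same libraries 22, 23 and 19 had the highest Cox6a1 and Cox8a values of D2. In 87 library 13, the WT library with the highest values of both genes, the sum was 457 CPM, against 21.04 and 61.8 CPM in the other 87 WT libraries. In B6, where Cox8a was called higher, the sum was 76.7, 125 and 138 CPM in CMD, against 220.2, 18.1 and 146 CPM in WT, and 87 CMD library 16 had 136 CPM at a Cox8a level as high as that of library 18, with 304 CPM. None of the 4 adipocyte markers was called in any strain. A step with a limit of 200 CPM was added after the data were seen. Without the 6 libraries in which this sum was above it, the Cox8a change in D2 was 0.27. That step leaves D2 CMD with library 24 alone, against WT libraries 20 and 21, and the fit assumes that the lone library varies like those of the other groups. The step took out libraries 22 and 23, which held the highest Cox8a values of D2, so a smaller change there was built in. It is no test of fat cells, and their part in these values was not tested in any strain. Those 6 libraries are 1, 13, 18, 19, 22 and 23. Without them 32 members were called higher in B6 (17.6% of all genes called in either direction), 14 higher in 67 (22.5%) and 36 higher in 87 (13.3%). No D2 count is given for this step, because it would rest on library 24, which had the lowest subunit sum of all.

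The muscle isoforms Cox6a2 and Cox8b kept a higher level than their partners but had a smaller share in CMD. Cox6a2 (ENSMUSG00000030785) had 471, 409 and 449.6 CPM in D2 CMD, against 663, 655 and 714 CPM in D2 WT (log2 fold change -0.61 ± 0.19, edgeR adjusted p = 0.0285). Cox8b (ENSMUSG00000025488) had 123, 111 and 59.8 CPM in D2 CMD, against 156, 148 and 163 CPM in D2 WT (-0.67 ± 0.19, edgeR adjusted p = 0.0174). Both were lower in every D2 CMD library than in every D2 WT library, though the Cox6a2 call was lost without library 20, 21, 23 or 24 and the Cox8b call without library 24. With sex from Y-linked reads as a term the Cox6a2 call was lost (edgeR adjusted p = 0.119). On library totals both calls were lost (edgeR adjusted p = 0.14 each). A fit of the D2 libraries alone lost the Cox8b call (edgeR adjusted p = 0.113). Their changes in the other strains were not called. In B6, 67 and 87 their changes ran from 0.03 to 0.52 and none was called. The log2 ratio of Cox8b to Cox8a reads per exon length was 3.37 ± 0.17 in B6 CMD and 4.06 ± 0.38 in B6 WT (SD, n = 3 each). In 67 it was 3.23 ± 0.14 in CMD and 4.24 ± 0.12 in WT, in 87 3.31 ± 0.34 in CMD and 3.95 ± 0.57 in WT, and in D2 1.80 ± 0.27 in CMD and 3.43 ± 0.45 in WT. The mean difference over the strains was -0.99 in an exact permutation test within strains (2-sided, p = 5e-05, adjusted p = 0.00025 over 5 ratios). The Cox6a2 to Cox6a1 ratio differed by -0.84 (exact permutation p = 0.00466, adjusted p = 0.0117), with -0.58, -0.69, -0.52 and -1.57 in B6, 67, 87 and D2. In D2 it was 2.98, 2.42 and 4.76 in CMD libraries 22, 23 and 24, against 4.01, 5.42 and 5.44 in WT. Library 24 thus lay within the WT range. The 87 groups overlapped too, at 4.87, 5.02 and 4.12 in CMD, against 4.21, 5.78 and 5.59 in WT. In B6 and 67 the groups were separate. Without the 6 libraries high in adipocyte transcripts the mean differences were -1.11 for Cox8b to Cox8a and -0.72 for Cox6a2 to Cox6a1. Their D2 part is 1 CMD library against 2 WT libraries.

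Cox7a1 and Cox7a2 form the remaining muscle and liver-type pair, and here both rose in B6 and 87. The log2 fold change of Cox7a1 (ENSMUSG00000074218) was the highest of the called members in 87 and the lowest in D2. It had 246, 243 and 259 CPM in B6 CMD, against 130.4, 119 and 131 CPM in B6 WT, and 237, 245 and 279 CPM in 87 CMD, against 101, 113 and 108 CPM in 87 WT. In D2 it had 127, 56.2 and 50.7 CPM in CMD, against 128, 125 and 194 CPM in WT. Library 22 lay within the D2 WT range, and libraries 23 and 24 were lower than every other library of the study. The log2 fold changes were 0.97, 0.60, 1.24 and -0.94 in B6, 67, 87 and D2, each ± 0.25 (SE, edgeR adjusted p = 0.0122, 0.0906, 0.00213 and 0.0136). The D2 call was lost without library 21, 23 or 24, and the B6 call without library 2. A fit of the D2 libraries alone lost the D2 call too (edgeR adjusted p = 0.117). Cox7a2 was at 0.88, 0.34, 0.95 and -0.20, called in B6 and 87. The log2 ratio of Cox7a1 to Cox7a2 was -0.12 ± 0.35 in D2 CMD and 0.68 ± 0.16 in D2 WT, and in the other strains it was 0.89 to 1.03 in CMD and 0.63 to 0.93 in WT (group means). Over the 4 strains the difference was -0.04 (exact permutation p = 0.753, adjusted p = 0.753). For subunit 4, the general isoform Cox4i1 was at 0.73, 0.45, 1.06 and -0.47, called in B6 and 87 (the B6 call was lost without library 2). Cox4i2, the lung-type isoform that is induced by low oxygen, stayed at or below 2.48 CPM in every library and was called in no strain. The ratio of Cox4i2 to Cox4i1 differed by -0.22 and that of Cox6b2 to Cox6b1 by -0.14 (exact permutation, adjusted p = 0.47 and 0.753).

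**Figure D3:**
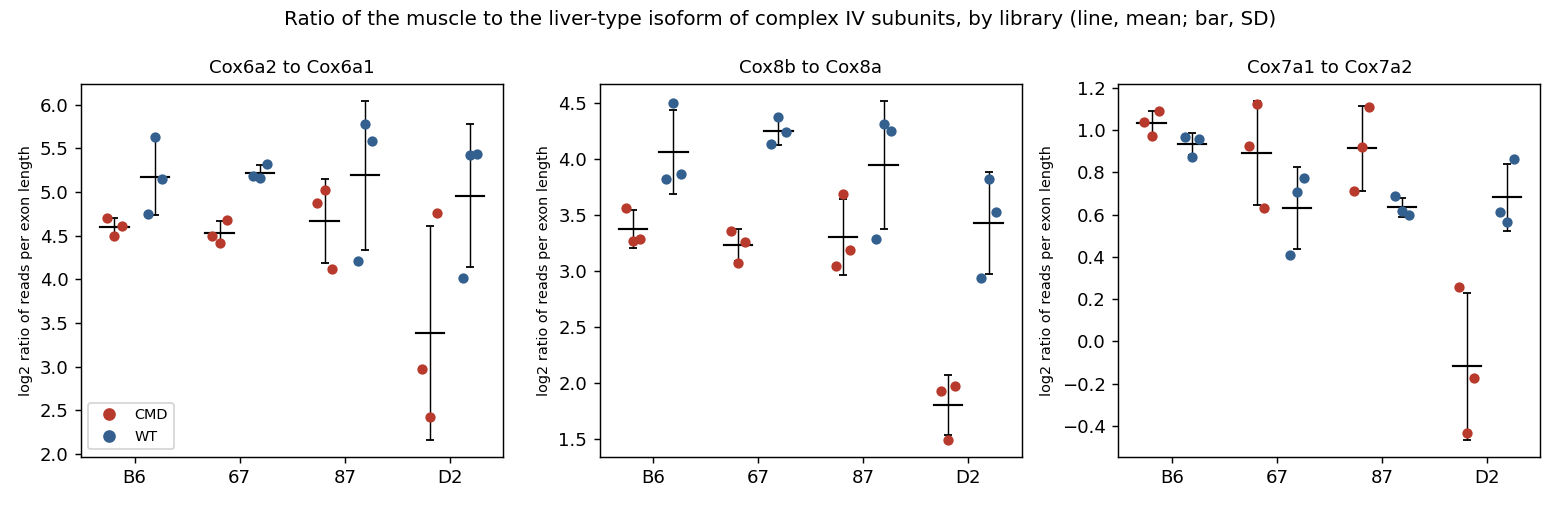
Log2 ratio of reads per exon length of the muscle isoform to the liver-type isoform in each library, for Cox6a2 to Cox6a1, Cox8b to Cox8a and Cox7a1 to Cox7a2, with CMD left of WT in each strain, the group mean as a line and the SD as a bar. The D2 CMD libraries have the lowest Cox8b to Cox8a ratios, at 1.498 to 1.98, against 2.94 to 3.82 in D2 WT libraries.

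In complex V, 15 of 19 subunit genes were called higher in B6, 2 in 67 and 18 in 87, and 10 were called lower in D2. The 4 that were not called in B6 were the catalytic head genes Atp5f1a and Atp5f1b, at 0.46 and 0.37 (edgeR adjusted p = 0.0839 and 0.185), with Atp5mc2 and Atp5po_1. Atp5f1b (ENSMUSG00000025393) had 2547, 2715 and 2947 CPM in B6 CMD, against 1789, 2063 and 2500.3 CPM in B6 WT. The groups were separate, with the highest WT library close to the lowest CMD library. In 87 it had 3469, 3247 and 2825 CPM in CMD, against 1584, 1949.7 and 1939 CPM in WT (log2 fold change 0.80 ± 0.19, edgeR adjusted p = 0.00669). In D2 it had 2344, 1430.1 and 1499 CPM in CMD, against 2625, 2712 and 3486 CPM in WT (-0.74 ± 0.19, edgeR adjusted p = 0.012). Atp5f1a was at 0.78 in 87 and -0.70 in D2, both called.

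The central stalk turns inside the head, and the c ring turns in the membrane as protons pass. Atp5f1d (ENSMUSG00000003072), a stalk subunit, had 356, 392 and 384 CPM in B6 CMD, against 235, 249 and 267 CPM in B6 WT. In 87 it had 458, 398 and 397 CPM in CMD, against 209.7, 267 and 242 CPM in WT, and in D2 287, 217 and 228 CPM in CMD, against 302, 327 and 353 CPM in WT. All 3 pairs of groups were separate. The log2 fold changes were 0.59, 0.28, 0.80 and -0.43 in B6, 67, 87 and D2, each ± 0.13 (SE, edgeR adjusted p = 0.00505, 0.127, 0.000453 and 0.0256). The D2 call was lost without library 20, 21, 23 or 24. With sex from Y-linked reads as a term it was lost too (edgeR adjusted p = 0.0851). It was also lost on library totals and in a fit of the D2 libraries alone (edgeR adjusted p = 0.259 and 0.107). Of the c-ring genes, which encode the same mature protein, Atp5mc1 (ENSMUSG00000006057) had 478, 509 and 509 CPM in B6 CMD, against 253, 301 and 345 CPM in B6 WT. In 87 it had 572, 525 and 529.7 CPM in CMD, against 226, 312 and 299 CPM in WT. In D2 it had 308, 182 and 228 CPM in CMD, against 368, 392 and 469 CPM in WT. Its changes were 0.73, 0.32, 0.96 and -0.77 (edgeR adjusted p = 0.00939, 0.206, 0.00124 and 0.00591). Atp5mc3 was at 0.88, 0.44, 1.07 and -0.63, called in B6, 87 and D2. Atp5mc2 differed less, with 0.29, 0.02, 0.48 and -0.22 and a call in 87 alone (edgeR adjusted p = 0.0139).

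The peripheral stalk holds the head still. Its genes Atp5pb, Atp5pf and Atp5po_2 were called higher in B6 (0.50 to 0.69) and 87 (0.78 to 0.79) and lower in D2 (-0.69 to -0.55). Atp5pd was called higher in B6 (0.84), 67 (0.51) and 87 (1.07) and was at -0.25 in D2 (edgeR adjusted p = 0.291). Of the membrane subunits, Atp5me, Atp5mf, Atp5mg, Atp5mj and Atp5mk were all called higher in B6 (0.63 to 0.93) and in 87 (0.75 to 1.15), and 0 of these 5 were called in 67. In D2 Atp5mk alone of the 5 was called lower (-0.62). Atp5if1 (ENSMUSG00000054428) encodes the inhibitor that stops the synthase from running backwards. It had 15.4, 17.5 and 18.8 CPM in B6 CMD, against 11.6, 8.91 and 9.83 CPM in B6 WT, and 17.6, 16.5 and 16.2 CPM in 67 CMD, against 11.8, 11.6 and 11.8 CPM in 67 WT. In 87 it had 12.5, 17.1 and 20.9 CPM in CMD, against 12.3, 10.99 and 10.2 CPM in WT. The changes were 0.77, 0.51 and 0.59 (edgeR adjusted p = 0.00443, 0.0304 and 0.0145). In D2 it had 13.9, 14.9 and 11.1 CPM in CMD, against 10.5, 11.1 and 13.3 CPM in WT, a change of 0.19 ± 0.16 (edgeR adjusted p = 0.407). The 67 call was lost without any one of the 6 libraries of 67, and the 87 call without library 15 or 18.

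**Figure D4:**
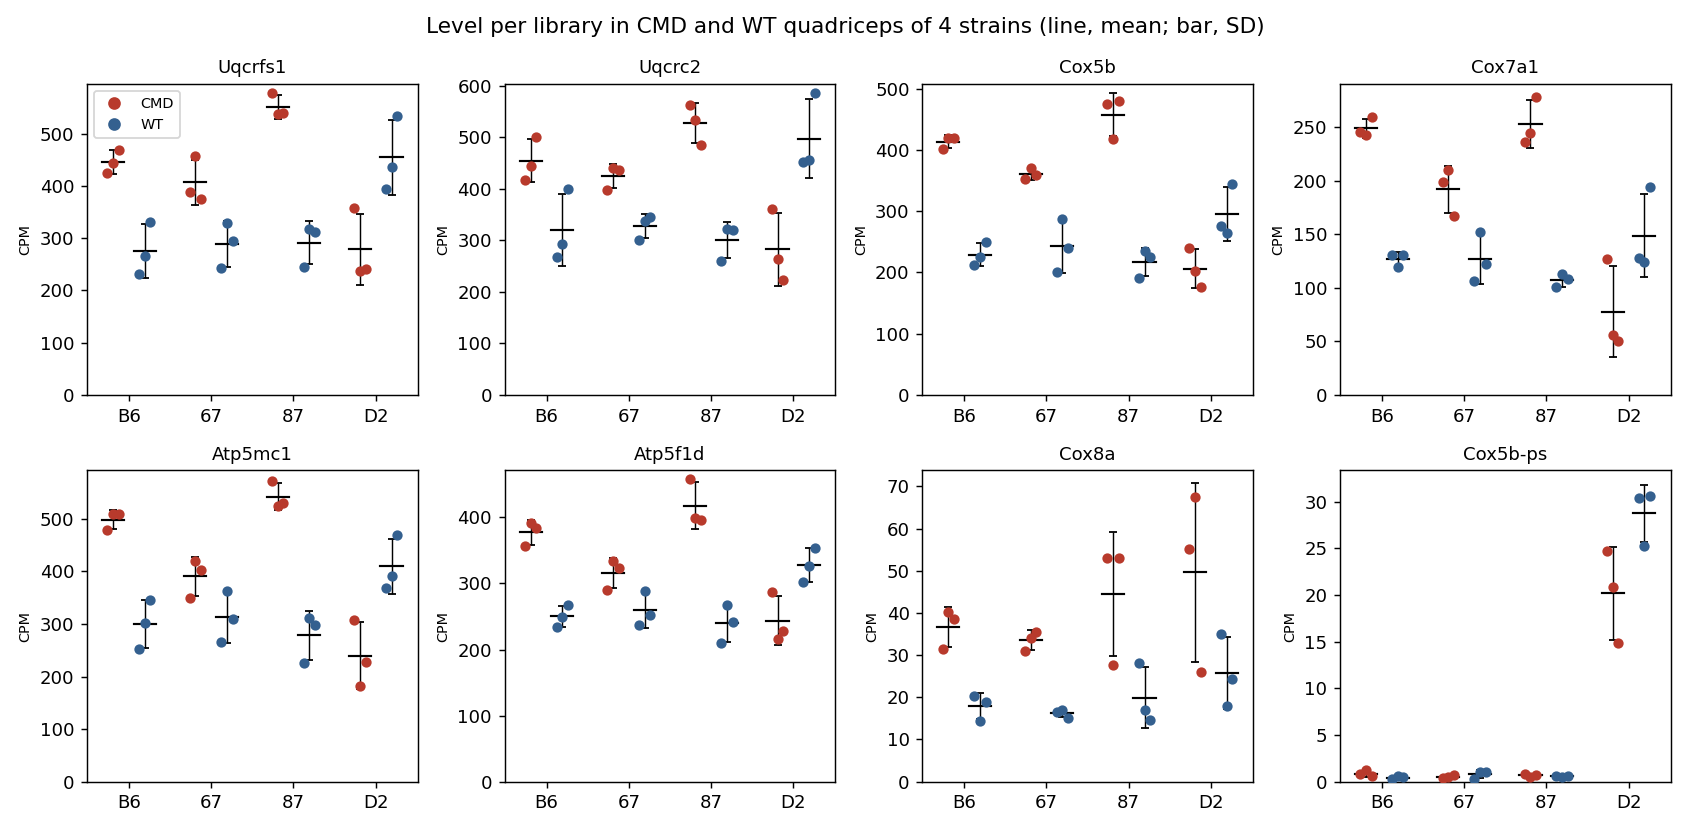
CPM per library of Uqcrfs1, Uqcrc2, Cox5b, Cox7a1, Atp5mc1, Atp5f1d, Cox8a and Cox5b-ps, with CMD (red) left of WT (blue) in each strain, the group mean as a line and the SD as a bar. For the first 6 genes the D2 CMD mean lies below the D2 WT mean and the CMD means of the other strains lie above their WT means; Cox8a is higher in CMD in each strain, and Cox5b-ps is at 14.9 CPM or more in D2 libraries alone.

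Whether the background altered the disease effect was tested as an interaction. The F test over the 4 strains called 35 of 44 members, where 4.67% of all genes were called. This held for 8 of 8 tested genes of complex III, 11 of 17 of complex IV and 16 of 19 of complex V. Cox5b had the smallest adjusted p (0.00218 in edgeR), followed by Atp5mc1 (0.00392). Cox8a and Cox6a1 stood at the other end (edgeR adjusted p = 0.98 and 0.995), which does not show that their changes were equal. The CMD effect in D2 minus that in B6 was called lower for 35 members and higher for 0, where 2.50% of all genes were called lower, 1.12% higher and 3.62% in either direction. Its median over the members was -1.14, against 0.09 over all genes. For Cox7a1 the difference was -1.91 ± 0.35 (SE, edgeR adjusted p = 0.00603). For Cox5b it was -1.37 ± 0.20 (edgeR adjusted p = 0.00309). The CMD effect in D2 minus that in 87 was called lower for 37 members, where 4.88% of all genes were called lower, 3.02% higher and 7.90% in either direction, with a median of -1.38 over the members against 0.06 over all genes. These comparisons share the D2 libraries. The CMD effect in D2 minus that in 67 was called lower for 9 members (1.28% of all genes were called in either direction), Uqcrc2, Uqcrfs1, Uqcrq, Cox5b, Cox6b1, Cox6c, Cox7a1, Atp5mc1 and Atp5mc3. That count was 1 without library 7 or 21 and 31 without library 22, and 1 with sex from the Y-linked reads as a term. Without library 9, 10, 11, 12, 23 or 24 it lay between 2 and 5.

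Among B6, 67 and 87 no difference of the CMD effect passed. EdgeR called 0 members for 87 minus B6 (0.00676% of all genes were called, 0 members had an unadjusted p under 0.05, and DESeq2 called 0). It called 0 for 67 minus B6 (0.00676% of all genes, 5 members with an unadjusted p under 0.05, and 0 in DESeq2). It called 0 for 87 minus 67 (0.142% of all genes, 28 members with an unadjusted p under 0.05, and 1 in DESeq2). Of all 14789 genes, 1918 had an unadjusted p under 0.05 for 87 minus B6, 1262 for 67 minus B6 and 2107 for 87 minus 67. The changes in 67 were below those in B6 for 41 of 44 members, with a median difference of -0.33. The changes in 87 were above those in 67 for 42 of 44, with a median difference of 0.56. Of all genes, 52.87% were above 0 for 67 minus B6 and 52.23% for 87 minus 67, each with a median of 0.03. For Cox5b the difference 87 minus 67 was 0.50 ± 0.20 (SE, edgeR adjusted p = 0.272), and for Uqcrb, which had the smallest adjusted p, 0.69 ± 0.19 (edgeR adjusted p = 0.121). Of the 44, 19 were called higher in B6 and 87 and lower in D2. They were 6 of complex III (Uqcrb, Uqcrc1, Uqcrc2, Uqcrfs1, Uqcrq and Uqcr11), 5 of complex IV (Cox5b, Cox6c, Cox7a1, Cox7b and Cox7c) and 8 of complex V (Atp5f1c, Atp5f1d, Atp5mc1, Atp5mc3, Atp5mk, Atp5pb, Atp5pf and Atp5po_2).

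Healthy muscle of the 4 strains was compared next. The F test over the 4 WT groups called 7 of 44 members, where 8.66% of all genes were called, and 4 of the 7 belong to complex III (Uqcrc1, Uqcrc2, Uqcrfs1 and Uqcrq). D2 WT against B6 WT called 9 members higher and 0 lower, where 2.82% of all genes were called higher and 7.38% in either direction. The median over the members was 0.40, against -0.00 over all genes, and 43 of 44 were above 0, where 49.74% of all genes were. Uqcrfs1 had 394, 436 and 535 CPM in D2 WT, against 231, 266 and 332 CPM in B6 WT (log2 fold change 0.72 ± 0.18, edgeR adjusted p = 0.0143). Uqcrc2 had 452, 455 and 586 CPM in D2 WT, against 268, 292 and 400.4 CPM in B6 WT (0.64 ± 0.17, edgeR adjusted p = 0.0281). The others were Uqcrb, Uqcrq, Atp5me, Atp5pd and Atp5pf, at 0.50 to 0.64, and 2 uncertain copies. The count was 1 without library 1, 2 or 21. EdgeR called 0 members in 67 WT against B6 WT (0.0203% of all genes, 0.0135% lower, 1 member with an unadjusted p under 0.05, 0 in DESeq2) and 0 in 87 WT against B6 WT (0.0541% of all genes, 0.0473% higher, 0 members with an unadjusted p under 0.05, 0 in DESeq2). Of all 14789 genes, 1444 had an unadjusted p under 0.05 in 67 WT against B6 WT and 1213 in 87 WT against B6 WT. The count of the F test was 34 in DESeq2, which called 20.8% of all genes, and in edgeR 1 without library 21, 2 without library 19 or 20 and 4 without library 15.

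Cox5b-ps (ENSMUSG00000079941), a copy of Cox5b that its symbol names as a pseudogene and the files class as protein-coding, separated D2 from the other strains. It had 30.4, 25.2 and 30.7 CPM in D2 WT, against 0.269, 0.598 and 0.467 CPM in B6 WT (log2 fold change 5.99 ± 0.42, edgeR adjusted p = 2.79e-08). D2 CMD libraries had 24.8, 20.9 and 14.9 CPM. Libraries of 67 and 87 held at most 1.06 CPM and those of B6 at most 1.21 CPM. Because 49.6% of its reads were unique, its level is uncertain. To a lesser degree so is that of Cox5b in each strain, with 72.2% unique reads over all libraries. Atp5po_1, the second locus with the symbol Atp5po, was at 1.35 in D2 WT against B6 WT (edgeR adjusted p = 0.0475) with nearly all reads shared.

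Genes that work beside these subunits were read as lists. For the lists here and below, 8.07 to 11.5% of all genes were called higher in a strain and 9.03 to 10.4% lower. Of the 6 mitochondrially encoded subunits of complexes III, IV and V, 5 were called higher in B6, 0 in 67 and 4 in 87, and 4 were called lower in D2, with medians of 0.81, 0.26, 0.66 and -0.70. Their summed CPM was 82484, 50994 and 54817 in D2 CMD, against 91071, 97472 and 119092 in D2 WT. Of 4 complex II genes, 3, 2 and 4 were called higher in B6, 67 and 87, and 4 lower in D2. Of 7 core complex I genes, 4, 0 and 6 were called higher in B6, 67 and 87, and 7 lower in D2. Cycs, cytochrome c, was at 0.68, -0.09, 0.75 and -0.89, called in B6, 87 and D2. Assembly factors, which build the complexes but are not part of them, had medians of -0.12 to 0.29 in B6, 67 and 87. Of 23 factors of complex IV, 3, 1 and 7 were called higher in B6, 67 and 87 and 1, 4 and 2 lower, and in D2 9 were called lower and 1 higher. Of 9 factors of complex III, 1, 2 and 1 were called higher, and 5 lower in D2. Of 5 factors of complex V, 0 were called in B6, 67 and 87, and 4 lower in D2. Of 3 carriers of ATP and phosphate, 2, 1 and 2 were called higher, and 2 lower in D2. Of 8 genes of cristae shape, 3, 0 and 5 were called higher, 1 lower in 67 and 6 lower in D2.

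Of 15 regulators of mitochondrial biogenesis, 2 were called higher and 1 lower in B6, 3 higher in 67, 5 higher in 87 and 7 lower in D2. Ppargc1a had 19.5, 9.64 and 12.9 CPM in D2 CMD, against 27.3, 27.1 and 31.1 CPM in D2 WT (log2 fold change -1.03, edgeR adjusted p = 0.0129). Its 87 libraries had 46.9, 44.8 and 60.6 CPM in CMD, against 19.9, 16.01 and 21.1 CPM in WT (1.42, edgeR adjusted p = 0.00149). The change of Ppargc1a was 0.21 in B6 (edgeR adjusted p = 0.619) and 0.86 in 67 (adjusted p = 0.028). Its CMD effect in 67 minus that in B6 was 0.65 (edgeR adjusted p = 0.645). Esrra, which encodes an estrogen-related receptor, was at 0.55, 0.36, 0.86 and -0.57, called in B6, 87 and D2. Ppargc1b was called in no strain. The part of these regulators in the subunit changes was not tested.

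Fibre type and other cell markers were also read as lists. Of 9 slow fibre markers, 2, 8 and 4 were called higher in B6, 67 and 87, and 0 in D2. Their sums were scattered in D2, at 265, 1728 and 995 CPM in CMD, against 805, 122 and 2851 CPM in WT. Of 9 fast fibre markers, 4, 8 and 4 were called lower in B6, 67 and 87, and 1 in D2. Of the fast list Myh1 alone was called higher, in 67 and 87, and so was the fast oxidative marker Myh2. In B6, 67, 87 and D2 the median log2 fold change was 0.73, 6.10, 5.19 and -0.30 over the slow markers. Over the fast markers it was -0.44, -0.95, -0.45 and -0.28. For Myh2 the changes were 1.46 ± 1.28, 5.75 ± 1.55, 4.87 ± 1.48 and 0.32 ± 1.26 (SE). The F test of the CMD effect over the 4 strains called 1 of the 9 slow and 0 of the 9 fast fibre markers, and not Myh2. It called 1 of 5 fibroblast markers and 0 of the macrophage and Schwann cell markers, where 4.67% of all genes were called. For Myh2 the edgeR adjusted p was 0.162. With a spread of this size, a missing call does not show that the changes were equal between strains. Summed fast fibre markers were 139617, 84981 and 120768 CPM in D2 CMD, against 152057, 165119 and 143701 CPM in D2 WT. Schwann cell markers summed to 51.7, 279.5 and 174 CPM in D2 CMD, against 53.3, 42.2 and 39.2 CPM in D2 WT, and 2 of 3 were called higher there. The 2 D2 CMD libraries with the lowest subunit levels, 23 and 24, were those with the high Schwann sums. Fibroblast markers summed to 1077, 981 and 1579 CPM in D2 CMD, against 677, 386 and 589.9 CPM in D2 WT, with 1 of 5 called higher, and of 5 macrophage markers 2 were called higher there. In 67 2 fibroblast and 2 macrophage markers were called higher, and in 87 1 macrophage marker higher and 1 fibroblast marker lower. Of 4 general skeletal muscle markers, 1 was called lower in B6 and in 67, 1 higher in 87 and 0 in D2. Of 4 endothelial markers 1 was called higher, in B6, and of 3 erythroid markers 0 were called in any strain. Of 3 brown adipocyte markers 1 was called higher in 67 and in D2. The part of fibre type and of these cell types in the subunit changes was not tested.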

How the data were processed

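Messenger RNA of left quadriceps was sequenced in 24 mouse libraries as paired reads of 58 bases with a stranded kit, per the labels' protocols. The authors deposited 1 table per library with read counts per gene (total and unique exon reads), TPM and RPKM. The genome build was GRCm39 (mm39), per the submitters' processing notes. Neither aligner nor counter is given in the sources used here. The deposited TPM were used for levels between genes, and the deposited RPKM were not used.

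Total exon read counts were joined by gene ID. Genes were kept by filterByExpr (minimum count 10, minimum total 15), which left 14789. One edgeR 4.0.16 quasi-likelihood model (R 4.3.3, limma 3.58.1) with TMM factors and a mean per group was fitted over all 24 libraries, with 16 residual degrees of freedom. Benjamini-Hochberg adjustment ran over all 14789 genes, and an adjusted p under 0.05 was called. A sex term was left out, because Y-linked reads went against the label in 4 libraries. Isoform ratios used 0.5 reads as a pseudocount and an exact permutation test within strains (160000 arrangements, smallest p 1.25e-05). Median levels per library used 0.5 CPM, also in the check of the D2 labels, which was added after the data were seen. The model was tested on simulated counts.

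Genes were named by fixed rules: the isoform pairs, the smallest p-values per strain and direction, in the interaction and in WT, and Atp5if1. Genes described by role beside these were chosen after their values were seen. The members and lists were chosen with earlier results of these data known. Alternatives were sex terms, DESeq2 1.42.0, RLE factors, no filter, unique reads, fewer libraries and, added after the data were seen, library totals and leaving out 6 libraries high in adipocyte transcripts. Pairs of libraries were compared, and 0 were identical.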

Additional observations from a re-analysis of the deposited data

Results flagged for a closer look

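The CMD effect differed between strains for these results, by the interaction tests of edgeR. Members called numbered 35 in the F test over the 4 strains, 35 for D2 minus B6, 9 for D2 minus 67 and 37 for D2 minus 87. In the F test the adjusted p was 0.00218 for Cox5b and 0.00392 for Atp5mc1. It was 0.00401 for each of Cox6c, Atp5f1d, Uqcrc2 and Uqcrfs1. For Cox7a1 it was 0.00441, and for Uqcrc1 and Cox4i1 0.00645 each. The isoform genes Cox7a2, Cox8b and Cox6a2 had 0.0118, 0.0331 and 0.0444.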

How the results depend on the processing

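Of 3557 checks of single member calls over all alternatives, 3153 kept their call, 404 lost it and 0 reversed. No paired analysis was possible because the groups share no replicate number. The counts below have no share of all genes called beside them. That share can move with the setting too, so the counts do not tell a change in these subunits from one in calls over all genes. Members called in D2 CMD against D2 WT were 24, and 9 with sex from Y-linked reads, 10 without libraries 16 and 23, 9 on library totals and 2 with only the libraries compared. In 67 they were 7, and 33 on library totals, 14 without the libraries high in adipocyte transcripts and 14 with only the libraries compared. In 87 they were 37, and 13 with only the libraries compared. For D2 minus 67 they were 9, and 19 with sex as labelled, 1 with sex from Y-linked reads, 25 in DESeq2, 17 on library totals and 5 with only the libraries compared. That count is not given without the adipocyte-high libraries, which leaves D2 CMD with 1 library. For 87 minus 67 they were 0, and 1 with sex as labelled and 1 in DESeq2. In the WT F test they were 7, and 11 with sex as labelled, 34 in DESeq2, 15 on library totals and 2 without the adipocyte-high libraries. For D2 WT against B6 WT they were 9, and 18, 3 and 4 on library totals, without the adipocyte-high libraries and with only the libraries compared. With 1 library left out, counts ran from 19 to 30 in B6, 0 to 8 in 67, 35 to 41 in 87, 7 to 34 in D2, 32 to 36 in the interaction F test, 31 to 36 for D2 minus B6, 1 to 31 for D2 minus 67, 36 to 37 for D2 minus 87, 1 to 7 in the WT F test and 1 to 9 for D2 WT against B6 WT. The ratio of Cox7a1 to Cox7a2 turned from -0.04 to 0.0256 without libraries 16 and 23, and ran from -0.086 to 0.0003 with 1 library left out. Ranges were -0.2652 to 0.0349 for Cox6b2 to Cox6b1 (0.0195 without library 1), -1.01 to -0.72 for Cox6a2 to Cox6a1, -1.07 to -0.94 for Cox8b to Cox8a and -0.34 to -0.12 for Cox4i2 to Cox4i1. The cause of these changes was not tested. Depth limits Cox7b2 and Cox8c, which had too few reads to test.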
